A study of Rattus norvegicus with 12 samples.

Results

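Heterotrimeric G proteins carry signals from receptors in the cell membrane to enzymes and ion channels inside the cell. An alpha subunit binds GTP when an activated receptor drives out its GDP, separates from a paired beta and gamma subunit, and both parts then act on effectors until the GTP is hydrolysed. In the heart muscle cell, Gs alpha links beta-adrenergic receptors to adenylyl cyclase and so to cyclic AMP and stronger, faster contraction. Gi alpha opposes the cyclase downstream of muscarinic and adenosine receptors, and Gq and G11 alpha activate phospholipase C.

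The subunits described here are 10 genes: Gnas (Gs alpha), Gnai1, Gnai2 and Gnai3 (Gi alpha), Gnao1 (Go alpha), Gnaq and Gna11 (Gq and G11 alpha), Gna12 (G12 alpha), and Gnb1 and Gnb2 (beta). Every probe set whose annotation names exactly 1 of these genes was taken, which gave 16 of the 8740 probe sets in the table and covered 7 of the 10 genes, out of 4736 genes named on the array. There were 4 probe sets for Gnas, 3 for Gnai2, 3 for Gnb1, 2 for Gnao1, 2 for Gna12 and 1 each for Gnai1 and Gnb2. Gnaq and Gna11 had none, and the annotation of 1 further probe set, rc_AI228247_at, names both Gnai1 and Gnai3, so Gnai3 is not described. Several probe sets were built on the same sequence entry (rc_AI237836 of Gnas, rc_AA875225 of Gnai2, M17526 of Gnao1, U88324 of Gnb1) and are not separate measurements of a gene.

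Total RNA of the left ventricle of rats was measured on 1 single-channel array per sample. There were 6 samples from animals that ran on a treadmill for 7 weeks (Exercised 1, 4, 5, 7, 8 and 9) and 6 from sedentary animals (Sedentary 13, 16, 17, 21, 23 and 24), with no other difference between the groups given in the labels. The sources used here name no strain, sex or age of the rats. Whether each numbered sample came from its own rat is not stated, so the p-values reflect the spread among samples, part of which may be technical. Values are the authors' intensities on a linear scale. Each difference is the Exercised mean minus the Sedentary mean of log2(intensity + 363), a scale on which changes of dim probe sets come out smaller than they are.

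The array medians lay between 840 and 875, and no 2 arrays held identical values. The labelled tissue was checked against markers of ventricular muscle. All 9 on the array passed the filter on dim probe sets, with mean intensities of 53710 for Actc1, 51908 for Myl2, 49995 for Tnni3 and, as the dimmest, 726 for Ryr2. Their summed intensity was 361045 to 387242 in Exercised and 349256 to 401259 in Sedentary samples. The atrial light chain Myl7 stood at 8652 on Sedentary 16, against 1323 to 1499 in Exercised samples and 1136 to 1923 on the other Sedentary arrays. Nppa, an atrial peptide that the ventricle can also make, was high on Exercised 4 at 23843 and on Sedentary 16 at 26157, with 5870 to 14197 on the other arrays. In tissue RNA, fewer cells of a type and less RNA per cell cannot be told apart. With limma and Benjamini-Hochberg adjustment over the 6555 probe sets above the filter, 21 passed an adjusted p of 0.05, or 0.32% of those tested.

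No G protein subunit probe set passed this test. Of the 16, 14 lay above the filter and were tested, and 0 of the 14 passed an adjusted p of 0.05 or of 0.10 (limma, smallest adjusted p = 0.151). At an unadjusted p under 0.05 there were 2 of 14, both on Gnas and both higher in Exercised samples, where 16.2% of all tested probe sets reached that level, 9.26% higher and 6.91% lower. An exact permutation test over the same 12 arrays, two-sided, put the same 2 Gnas probe sets under an unadjusted 0.05 (p = 0.0065 and 0.041). That test was run on the member probe sets only, so its share over all tested probe sets is not known. The Exercised and Sedentary values overlapped on every member probe set, while they did not overlap on 2.07% of all tested probe sets (1.5% higher and 0.58% lower). The 14 differences ran from -0.096 to 0.19 with a median of 0.051, beside a median of 0.0027 over all tested probe sets. By sign 13 of the 14 were higher and 1 lower in Exercised samples, where 51.4% of all tested probe sets were higher. The split was 11 and 3 after quantile normalization, with array weights, and without Exercised 5 or Sedentary 16, 17 or 24. It was 10 and 4 without Exercised 4 and 5 together. With the brightest probe set per gene, 5 of 6 genes were higher, beside 1995 of all 3876 genes tested. The 95% confidence intervals of the 14 differences, not adjusted for their number, lay within -0.26 and 0.31.

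**Figure D1:**
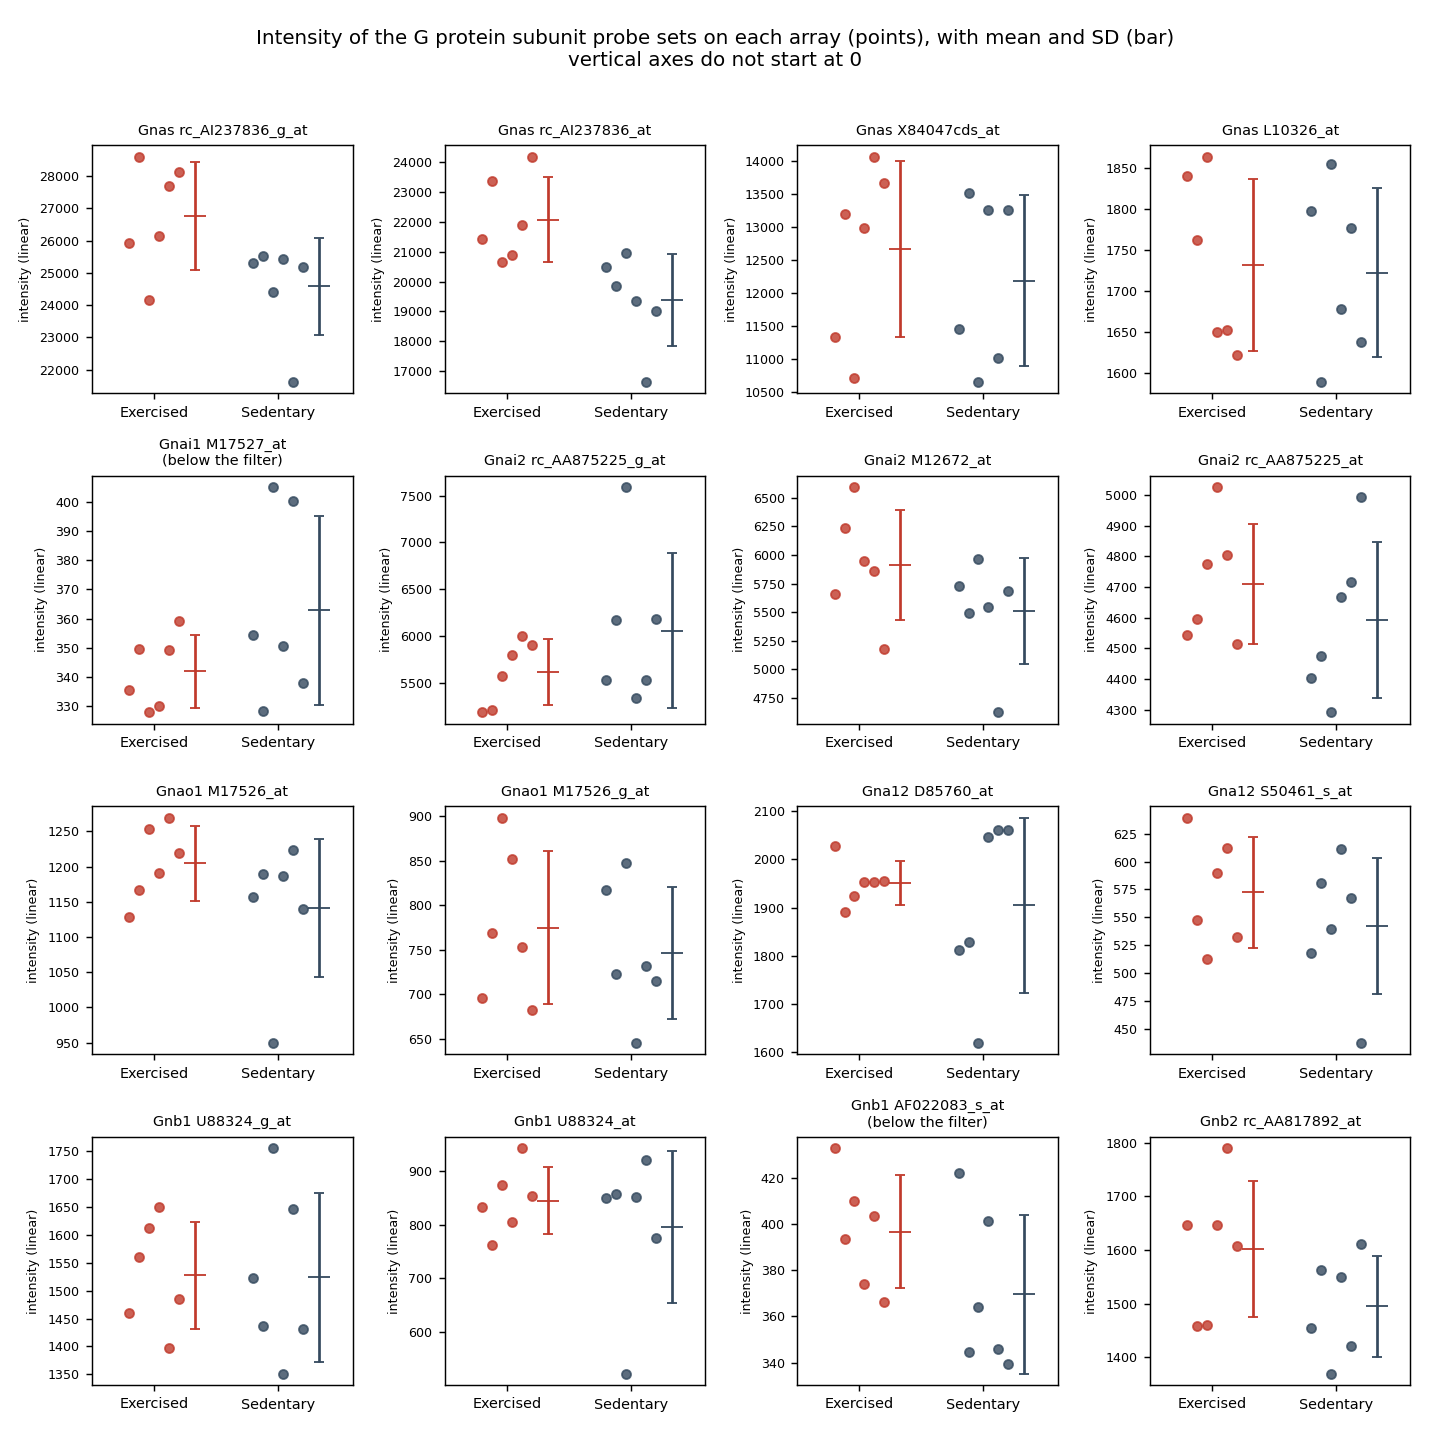
Intensity on a linear scale (vertical axis, not starting at 0) of the 16 G protein subunit probe sets in Exercised (red, left, n = 6) and Sedentary (blue, right, n = 6) samples, 1 point per array in order of sample number, with the mean and SD beside them. The groups overlap in every panel. The panels of Gnai2 rc_AA875225_g_at, Gnao1 M17526_at and Gnb1 U88324_at each have 1 Sedentary array, Sedentary 17, far from the rest.

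Gnas encodes Gs alpha, the subunit that stimulates adenylyl cyclase, and had the 2 member probe sets under an unadjusted p of 0.05. On rc_AI237836_at the Exercised values had a lowest of 20639, a median of 21668 and a highest of 24190, against 16637, 19598 and 20966 in Sedentary samples. All 6 Exercised samples were above the Sedentary mean and 2 of them lay within the Sedentary range. The means were 22070 ± 1420 in Exercised and 19382 ± 1526 in Sedentary samples (SD, n = 6 each), a log2 difference of 0.19 ± 0.059 (SE, limma adjusted p = 0.151). The lowest value, 16637, belonged to Sedentary 23, and without that array the difference was 0.14 (limma adjusted p = 0.267).

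The companion Gnas probe set on the same sequence entry, rc_AI237836_g_at, had a lowest value of 24150, a median of 26925 and a highest of 28605 in Exercised samples, against 21623, 25256 and 25536 in Sedentary samples. Its difference was 0.12 ± 0.053 (SE, n = 6 each, limma adjusted p = 0.273), with 5 of 6 Exercised samples above the Sedentary mean. Exercised 5 was the exception, at 24150. The other 2 Gnas probe sets showed smaller differences. X84047cds_at averaged 12660 ± 1338 in Exercised and 12187 ± 1293 in Sedentary samples (SD, n = 6 each), a difference of 0.053 ± 0.082 (SE, limma adjusted p = 0.751), which became -0.025 after quantile normalization. L10326_at averaged 1732 ± 105 in Exercised and 1722 ± 103 in Sedentary samples (SD, n = 6 each), a difference of 0.0065 ± 0.047 (SE, limma adjusted p = 0.957). The Gnas locus is known to make several transcripts from different start sites, and the sources used here do not say which of them each probe set reads.

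The spread of X84047cds_at within the groups had a form of its own. Its values fell into a low range of 10647 to 11447 on 5 arrays (Exercised 1 and 5, Sedentary 13, 17 and 23) and a high range of 12985 to 14071 on the other 7, so both ranges held samples of both groups. The order was turned round on L10326_at, where the same 5 arrays had the highest intensities, 1777 to 1863, and the other 7 had 1589 to 1762. On the pair of Gnas probe sets on rc_AI237836 both sets of arrays overlapped. On rc_AI237836_g_at the same 5 arrays had 21623 to 25932 and the other 7 had 25195 to 28605. The lowest values there were on Sedentary 23, Exercised 5 and Sedentary 17, all among the 5. On rc_AI237836_at the 5 arrays had 16637 to 21436 and the other 7 had 19000 to 24190.

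The differences of the bright Gnas probe sets were smaller after quantile normalization. Of the 437 tested probe sets with a mean above the 95th percentile of all means, to which 3 of the Gnas probe sets belong, 294 were higher and 143 lower in Exercised samples by sign, and 28.4% had an unadjusted p under 0.05. Their median difference was 0.042, and 0.0021 after quantile normalization. The same normalization gave 0.13 for rc_AI237836_at (limma adjusted p = 0.191) and 0.093 for rc_AI237836_g_at (0.394). The part of brightness in the Gnas differences was not tested. The array profile nearest to rc_AI237836_at was sought by the root mean square difference of standardised log2 values over the 12 arrays. The nearest genes were Ciao2b (0.412), Rps29 (0.531) and Rpl35 (0.544), where the median over 3875 genes was 1.35. They were picked as the smallest distances, so lying below that median follows from the choice. The profiles include the difference between the groups.

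Gnai2 encodes the Gi alpha subunit that could be tested here, an inhibitor of adenylyl cyclase, and its probe sets did not go one way. On rc_AA875225_g_at the Exercised values had a lowest of 5187, a median of 5687 and a highest of 6005, against 5343, 5855 and 7591 in Sedentary samples. The 7591 was Sedentary 17, and the next Sedentary value was 6180. This was the single tested member probe set with a lower mean in Exercised samples, at 5614 ± 352 against 6059 ± 830 in Sedentary samples (SD, n = 6 each). Its difference was -0.096 ± 0.077 (SE, limma adjusted p = 0.546), and -0.033 without Sedentary 17. The companion probe set on the same entry, rc_AA875225_at, had 4710 ± 196 in Exercised and 4592 ± 254 in Sedentary samples (SD, n = 6 each), a difference of 0.035 ± 0.049 (SE, limma adjusted p = 0.735). There Sedentary 17 had the lowest value of all arrays, 4291.

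The third Gnai2 probe set, M12672_at, had a lowest of 5179, a median of 5906 and a highest of 6595 in Exercised samples, against 4622, 5617 and 5967 in Sedentary samples. The lowest Exercised value was on Exercised 9 and the lowest Sedentary value on Sedentary 23, and 4 of 6 Exercised samples lay within the Sedentary range. The difference was 0.097 ± 0.068 (SE, n = 6 each, limma adjusted p = 0.492), and 0.050 without Sedentary 23. Gnai1, a closely related Gi alpha subunit, was dim: its M17527_at had 342 ± 12.6 in Exercised and 363 ± 32.3 in Sedentary samples (SD, n = 6 each), below the filter, so it was not tested. All 6 Exercised values, 328 to 359, lay below the Sedentary mean, and 5 of them lay within the Sedentary range of 328 to 405. The Gi alpha genes are similar in sequence and their probe sets can share signal.

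The question of stimulatory against inhibitory alpha subunits rests on Gnas and Gnai2 alone, since Gnai1 was below the filter and Gnai3 had no probe set of its own. Per array, the log2 value of Gnas minus that of Gnai2, each on its brightest probe set and centred on its mean over the 12 arrays, was highest on Exercised 4 at 0.30 and lowest on Sedentary 17 at -0.44. The Exercised samples had -0.027 to 0.30 with a mean of 0.11 ± 0.12 (SD, n = 6), and the Sedentary samples -0.44 to 0.10 with a mean of -0.11 ± 0.19 (SD, n = 6). The value was above 0 in 5 of 6 Exercised and in 2 of 6 Sedentary samples, so the groups overlapped. The difference between the group means was 0.22, given as a description with no test since it is a score over chosen genes. It depended on the probe sets. Averaged over all tested probe sets of each gene it was 0.080, and with Gnao1 counted among the inhibitory subunits it was 0.14. Without Sedentary 17 it was 0.15. The Gnai2 probe set used, rc_AA875225_g_at, differed by -0.096 and was the only tested one of that gene that was lower. Gnai2 M12672_at, with a mean intensity of 5710 against 5837, differed by 0.097, beside 0.12 for the Gnas probe set used.

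**Figure D2:**
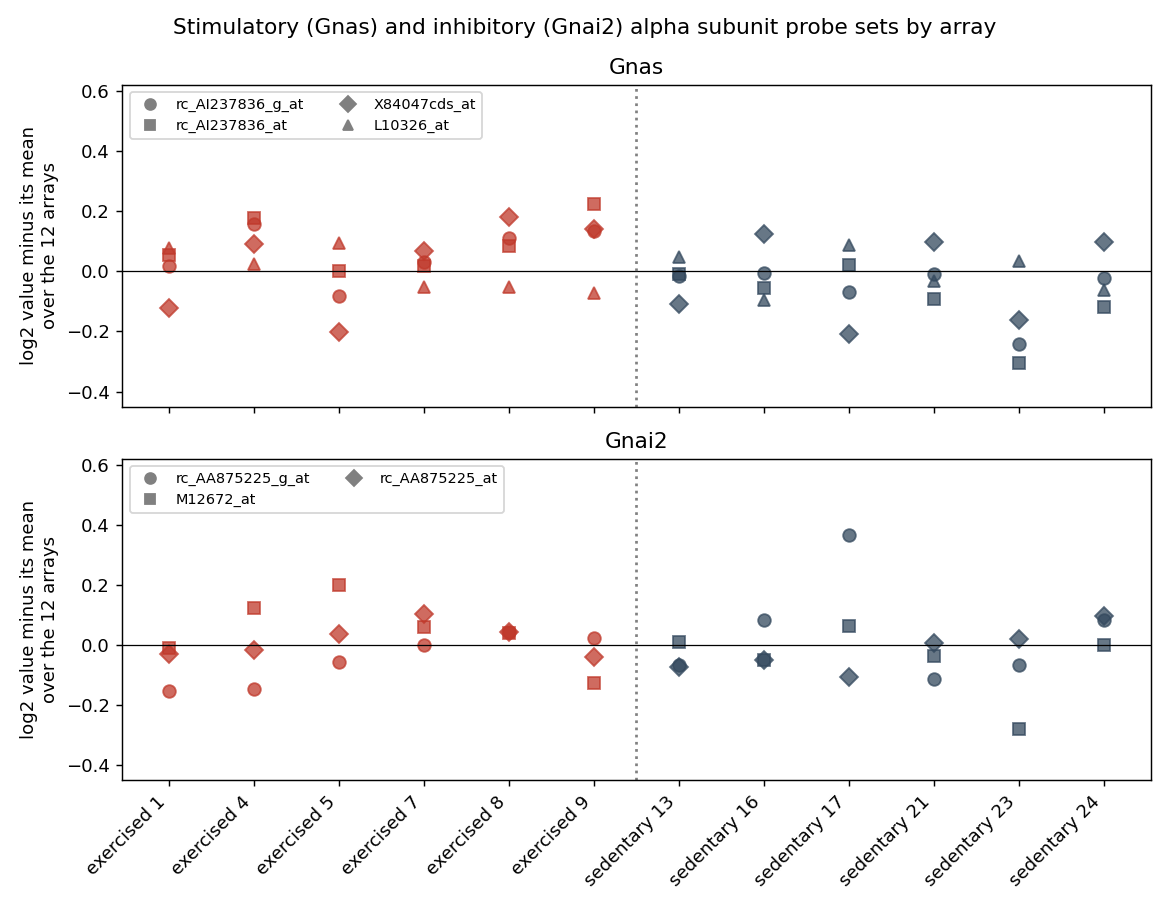
Log2 value of each Gnas (top) and Gnai2 (bottom) probe set minus its own mean over the 12 arrays (vertical axis), by array (horizontal axis, Exercised in red on the left, Sedentary in blue on the right, 1 symbol per probe set). The probe sets of each gene disagree on single arrays: on Sedentary 17, Gnai2 rc_AA875225_g_at is the highest of all 12 arrays and rc_AA875225_at the lowest.

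Gnao1 encodes Go alpha, abundant in neurons and present in the heart, where it shares the Gi family's sensitivity to pertussis toxin. M17526_at had a lowest of 1129, a median of 1205 and a highest of 1270 in Exercised samples, against 950, 1171 and 1223 in Sedentary samples. Sedentary 17 held the 950, and the other Sedentary arrays had 1140 to 1223. The difference was 0.062 ± 0.047 (SE, n = 6 each, limma adjusted p = 0.520), and 0.023 without Sedentary 17. M17526_g_at gave 775 ± 85.5 in Exercised and 747 ± 73.9 in Sedentary samples (SD, n = 6 each), a difference of 0.036 ± 0.056 (SE, limma adjusted p = 0.755). Of 13 nerve and glial markers on the array 8 passed the filter, and their summed intensity over all 13 was 9030 to 9765 in Exercised and 9145 to 10659 in Sedentary samples, with the highest on Sedentary 17.

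Gna12 encodes G12 alpha, of the G12 and G13 family of alpha subunits. D85760_at was tight in the trained group, with 1891 to 2027 in Exercised samples, against 1619 to 2062 in Sedentary samples, and all 6 Exercised values lay within the Sedentary range. The coefficient of variation was 2.31% in Exercised and 9.55% in Sedentary samples, and this difference in spread was not tested. The means differed by 0.033 ± 0.053 (SE, n = 6 each, limma adjusted p = 0.768), and by -0.0056 without Sedentary 17. The dimmer S50461_s_at gave 572 ± 49.4 in Exercised and 542 ± 61.0 in Sedentary samples (SD, n = 6 each), a difference of 0.048 ± 0.050 (SE, limma adjusted p = 0.638).

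Gnb1 and Gnb2 encode beta subunits, which with a gamma subunit hold the inactive alpha subunit and, once free, act on potassium channels and other effectors. Gnb2 rc_AA817892_at had a lowest of 1458, a median of 1627 and a highest of 1790 in Exercised samples, against 1369, 1502 and 1611 in Sedentary samples. Its difference of 0.080 ± 0.051 (SE, n = 6 each, limma adjusted p = 0.447) was exceeded among the members by those of Gnas rc_AI237836_at and rc_AI237836_g_at and of Gnai2 M12672_at. Exercised 4 and 5, at 1458 and 1460, were the low Exercised values, and without both the difference was 0.13. It was 0.053 without Exercised 8 and 0.040 with array weights.

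Gnb1 U88324_g_at had 1527 ± 96.3 in Exercised and 1524 ± 151 in Sedentary samples (SD, n = 6 each), a difference of 0.0050 ± 0.056 (SE, limma adjusted p = 0.974). U88324_at had 845 ± 61.5 in Exercised and 796 ± 141 in Sedentary samples (SD, n = 6 each), a difference of 0.068 ± 0.075 (SE, limma adjusted p = 0.664), which was -0.0071 without Sedentary 17. That array stood at 523 on U88324_at, the lowest of all, and at 1755 on U88324_g_at, the highest of all, although both probe sets were built on 1 sequence entry. AF022083_s_at, also of Gnb1, was below the filter, with 366 to 433 in Exercised and 340 to 422 in Sedentary samples. Over the 14 tested probe sets, Sedentary 17 had the lowest of the 12 values on 6 and the highest on 2.

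**Figure D3:**
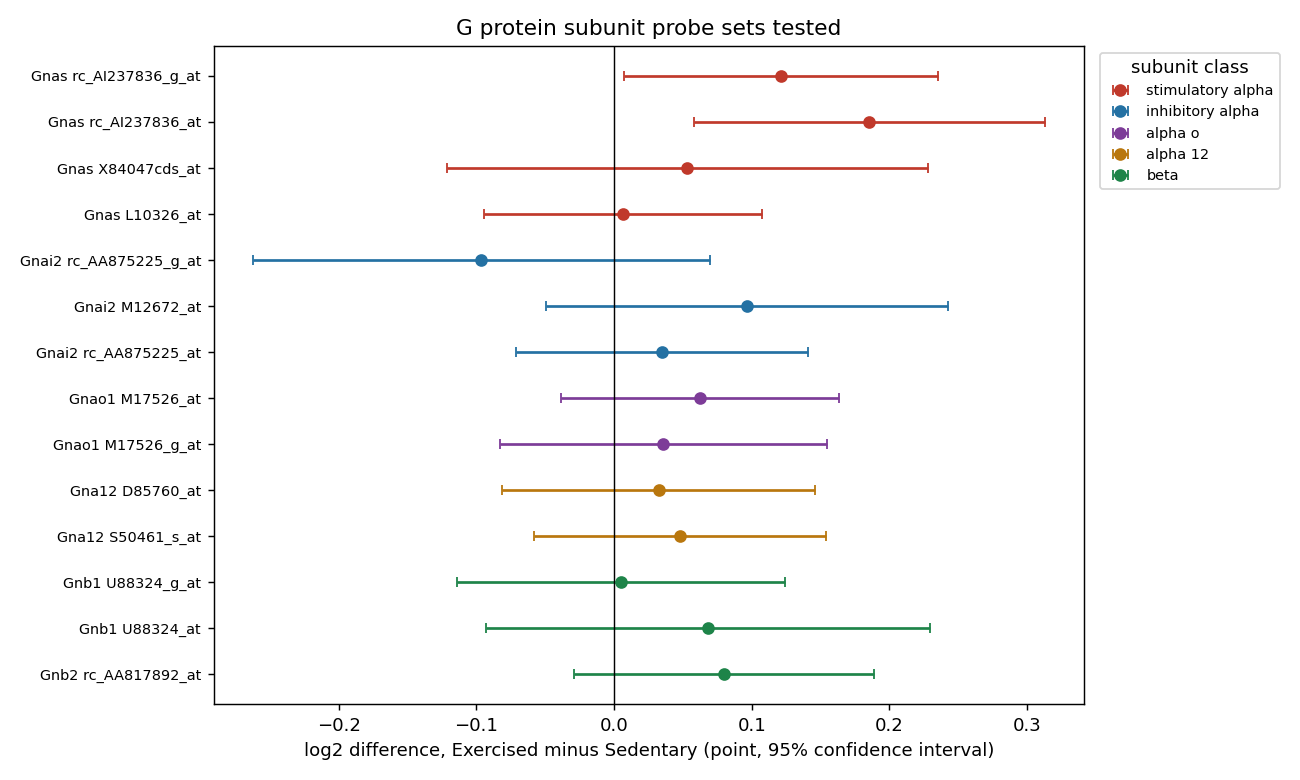
Log2 difference, Exercised minus Sedentary (horizontal axis), of the 14 tested G protein subunit probe sets, with 95% confidence intervals from limma that are not adjusted for their number, coloured by subunit class. The intervals of Gnas rc_AI237836_at and rc_AI237836_g_at lie above 0 and the other 12 include it, while no adjusted p is below 0.151.

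The remaining genes of the pathway were taken from lists of other subunits, regulators, receptors, receptor kinases and arrestins, and effectors, with 1 probe set per gene. Of 82 such genes tested, 0 passed an adjusted p of 0.05 (limma, smallest 0.0617), and at an unadjusted p under 0.05 there were 5 higher and 7 lower. Over all 3876 genes tested, 357 were higher and 268 lower at that level, and the median difference was 0.0029. Among 10 other G protein subunits tested, which include the beta subunits Gnb3, Gnb4 and Gnb5 and gamma subunits, 0 were under an unadjusted 0.05 and the median was 0.040. The smallest p there belonged to the gamma subunits Gng10 (0.062 ± 0.036, limma adjusted p = 0.407), Gng8 (0.067 ± 0.039, 0.410) and Gng7 (-0.073 ± 0.052, 0.494).

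Receptor kinases and arrestins end the signal of an activated receptor. Grk2, the beta-adrenergic receptor kinase that is drawn to the membrane by free beta and gamma subunits, had 788 to 871 in Exercised samples, against 888 to 1066 in Sedentary samples. These values did not overlap, as on 0.58% of all tested probe sets in the lower direction. The means were 834 ± 30.8 in Exercised and 959 ± 67.0 in Sedentary samples (SD, n = 6 each), a difference of -0.14 ± 0.038 (SE), and the gene did not pass (limma adjusted p = 0.1001). Of 6 genes tested in this list, 3 had a higher and 3 a lower mean in Exercised samples, the median was -0.032, and the arrestin Arrb1 (-0.094 ± 0.057, limma adjusted p = 0.421) and the kinase Grk4 (0.070 ± 0.057, 0.551, and 0.029 without Sedentary 17) came next in p.

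RGS proteins speed the hydrolysis of GTP by alpha subunits. Of 8 regulators tested, 1 was higher and 2 were lower at an unadjusted p under 0.05, with a list median of -0.0014. Rgs14, which acts on Gi alpha, gave -0.15 ± 0.065 (SE, n = 6 each, limma adjusted p = 0.270) and Rgs1 gave -0.11 ± 0.043 (0.228). Nucb1, a calcium-binding protein that also binds alpha subunits, gave 0.16 ± 0.069 (0.266), and its other probe set gave -0.054.

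Among 32 receptors, 1 was higher and 3 were lower at an unadjusted p under 0.05 (median 0.0025). The Gq-coupled serotonin receptor Htr2b had the smallest p of all the pathway genes, with 684 to 822 in Exercised samples, against 829 to 1136 in Sedentary samples. Its difference was -0.28 ± 0.061 (SE, n = 6 each, limma adjusted p = 0.0617). The angiotensin receptor Agtr1b gave -0.17 ± 0.070 (0.248), with -0.091 and -0.026 on its other probe sets. All of the Agtr1b probe sets, the first included, can share signal with Agtr1a. The purine receptor P2ry2 gave 0.11 ± 0.046 (0.253). Without Sedentary 17 these were -0.11 for Agtr1b and 0.066 for P2ry2.

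Among 26 effectors, 3 were higher and 1 was lower at an unadjusted p under 0.05 (median 0.0024). Plcb4, a phospholipase C driven by Gq alpha, had 2518 ± 126 in Exercised and 2193 ± 204 in Sedentary samples (SD, n = 6 each), a difference of 0.18 ± 0.058 (SE, limma adjusted p = 0.160), but its other probe set gave 0.015. The inositol trisphosphate receptor Itpr3 gave 0.18 ± 0.077 (0.258), with -0.013 on its other probe set.

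**Figure D4:**
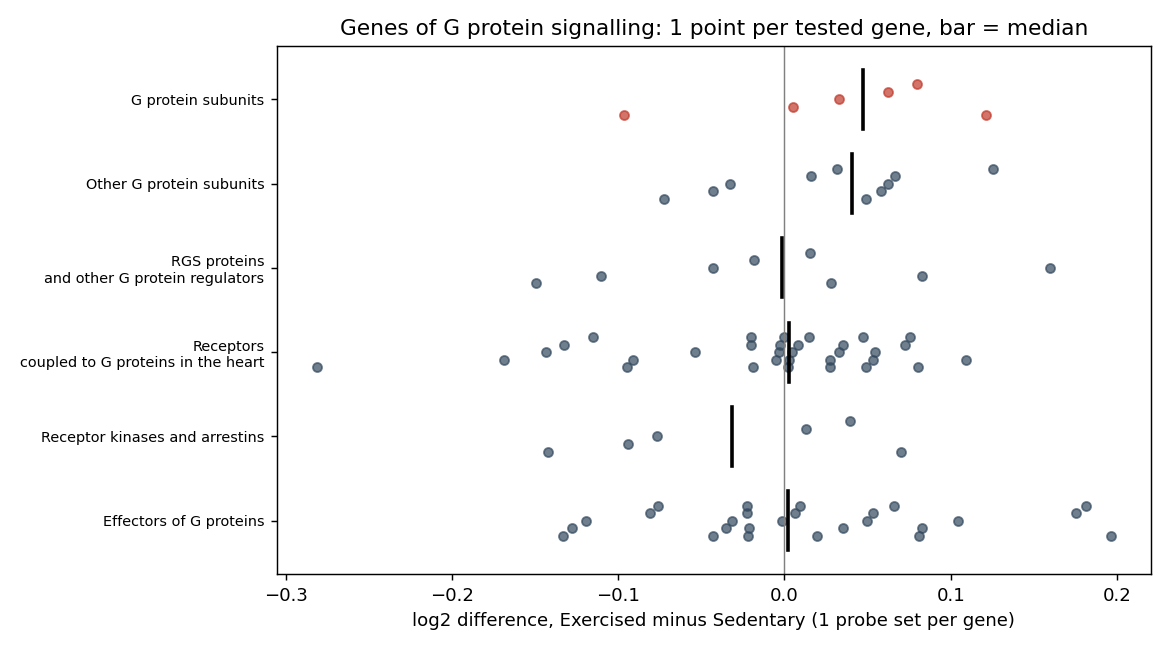
Log2 difference, Exercised minus Sedentary (horizontal axis), of each tested gene of G protein signalling on its brightest probe set, 1 point per gene, with the described subunits in red, 5 further lists in blue and a black bar at each list's median. The medians of the 6 lists lie between -0.032 and 0.047, and the leftmost point is Htr2b at -0.28.

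Markers of other cell types differed between the groups in places, and for several of them 1 or 2 arrays moved the value. By sign, 8 of 8 tested fibroblast markers were higher (median 0.19), among them Pdgfra at 0.28, Col1a2 at 0.36 and Vim at 0.18. The other tested probe set of Pdgfra gave -0.071. Col1a2 was at 0.22 without Sedentary 24. Without Exercised 4 and 5, Pdgfra was at 0.14 and Vim at 0.11. At the other end, Pdgfra was at 0.34 without Sedentary 21 and Vim at 0.28 without Sedentary 16 and 17. The summed fibroblast markers had 55911 on Exercised 4 and 45610 on Exercised 5. The other Exercised arrays had 35823 to 40058, against 30527 to 39674 in Sedentary samples. The 4 tested erythroid markers were all lower by sign (median -0.43), among them Alas2 at -0.28, Hbb at -0.58 and Slc4a1 at -0.11. Their sum was 31863 on Exercised 4 and 19899 on Exercised 5, with 56317 to 65142 on the other Exercised arrays, against 62294 to 71206 in Sedentary samples. Hbb was at -0.32 without Exercised 5 and at -0.12 without Exercised 4 and 5.

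Of 6 smooth muscle markers 5 were higher by sign (median 0.14), among them Acta2 at 0.34, Des at 0.21 and Actg2 at 0.17. The other tested Acta2 probe sets gave -0.051 and 0.060. The Acta2 value of 0.34 became 0.24 without Exercised 5 and 0.54 without Sedentary 16 and 17. The sum of the smooth muscle markers was 20808 to 26129 in Exercised and 19209 to 21637 in Sedentary samples. Desmin is also made by the heart muscle cell, and without Des the sum was 6483 to 8792 in Exercised and 5580 to 7772 in Sedentary samples. Macrophage markers had a median of -0.042, with Lyz2 at 0.997 (limma adjusted p = 0.0404), C1qb at 0.37 and Aif1 at -0.20, and Lyz2 was the single marker of the 8 lists to pass. With 1 array left out it passed in 4 of 12 fits, those without Exercised 1, 4 or 8 or Sedentary 13, and had a limma adjusted p of up to 0.104 in the others.

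The other lists had medians of 0.013 for ventricular, -0.0085 for atrial, -0.020 for nerve and glial and -0.039 for endothelial markers. Atrial Pam gave 0.21, Myl4 -0.29 and Myl7 -0.36, and without Sedentary 16 Myl4 was at -0.14 and Myl7 at 0.039. Endothelial Vwf gave -0.14, Flt1 -0.13 and Icam2 -0.056, and without Sedentary 17 Vwf was at -0.062 and Flt1 at -0.024. The ventricular genes gave -0.066 for Ckm, -0.10 for Atp2a2 and 0.043 for Actc1. The other tested Atp2a2 probe sets, which were dimmer, gave -0.022, 0.13 and 0.18. The nerve and glial genes gave 0.072 for Prph, -0.098 for Uchl1 and -0.082 for Npy. Without Sedentary 17, the brightest Atp2a2 probe set was at -0.064, Actc1 at 0.068 and Uchl1 at -0.057. Without Sedentary 24, that Atp2a2 probe set was at -0.16 and Actc1 at 0.026. The part of these cell types in the subunits' values was not tested.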

How the data were processed

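The authors deposited an intensity for each of 8740 probe sets on 12 arrays, on a linear scale. The sources used here name no array software, background correction or scaling method, and the deposited scaling was kept. The platform's annotation gave the gene names: 7006 probe sets named 1 gene, 308 several and 1426 none. Group and number came from the sample titles. The pseudocount was the 20th percentile of all values (363), and probe sets with a mean above the 25th percentile (434) were kept, 6555 in all. The test was limma 3.58.1 in R 4.3.3 (lmFit, eBayes with trend), two-sided, with Benjamini-Hochberg adjustment over all kept probe sets and a threshold of 0.05. The code was tested on simulated data.

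The members and gene lists were chosen with earlier results of these data known. Named were all member probe sets, in each list the genes past the threshold and the 3 of smallest p, and the 3 genes nearest in profile to the member of smallest p. One gene that this rule names is not reported here. The brightest probe set stood for a gene in the lists. Myl7 and Nppa on single arrays, the sum without Des, the bright probe sets, the ranges of X84047cds_at and the spread of Gna12 were chosen after their values were seen. Alternatives covered pseudocount, filter, scaling, variance settings, array weights, threshold, an exact permutation test and arrays left out.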

Additional observations from a re-analysis of the deposited data

Results flagged for a closer look

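In 4 of the 28 groups of 6 values (14 tested probe sets in either group), 1 array lay far from the others by Dixon's gap test, which flags about 5% of groups by chance. All 4 were in Sedentary samples, on Sedentary 17 or 23. Sedentary 23 had 21623 on Gnas rc_AI237836_g_at, where the other Sedentary arrays had 24398 to 25536, and 4622 on Gnai2 M12672_at, where the others had 5492 to 5967. Sedentary 17 had 950 on Gnao1 M17526_at, where the others had 1140 to 1223, and 523 on Gnb1 U88324_at, where the others had 774 to 920. Each of these was the lowest value of its group, and no cause was tested. Gnai2 rc_AA875225_g_at, where Sedentary 17 had 7591 and the next Sedentary value was 6180, was not flagged on the log2 scale.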

How the results depend on the processing

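No paired analysis was possible because the numbers in the sample titles are not shared between the groups. In none of the 23 other settings of filter, pseudocount, scaling, variance, weights or arrays did a G protein subunit probe set pass an adjusted p of 0.05 (limma), and the smallest was 0.0814, for Gnas rc_AI237836_at with array weights. Of the 14 tested probe sets, 8 kept their sign in all these settings and 6 did not in at least 1 (21 of 319 values): Gnas X84047cds_at and L10326_at, Gnao1 M17526_g_at, Gna12 D85760_at, and Gnb1 U88324_g_at and U88324_at. The count over all probe sets moved more, from 21 to 32 with no filter, 50 with a filter at the 50th percentile, 42 without trend, 160 with array weights, 144 at a threshold of 0.10 and 3 (without Sedentary 23) to 37 (without Sedentary 13) with 1 array left out. It moved by over 1.5 times in each of these fits except those without Exercised 4, Exercised 8 or Sedentary 17. It was 5 without Sedentary 16 and 17 and 4 without Exercised 4 and 5, pairs chosen after seeing the data. The difference of Gnas minus Gnai2 ran from 0.15 to 0.26 with 1 array left out. Of the 82 further pathway genes tested (62 with the stricter filter), Htr2b passed in 3 of the 23 settings and Grk2 in 1, with array weights (0.0490), and no other did. The number of arrays limits the precision. The causes of these shifts were not tested.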
